A study of Mus musculus with 8 samples.

Results

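The genes described here are 10 members of the cellular response to low oxygen, taken by symbol from the gene column of the count tables: Hif1a, Egln1, Egln3, Vhl, Kdm3a, Vegfa, Bnip3, Ddit4, Ankrd37 and Cited2. They are 10 of 26608 gene symbols in the tables. All 10 passed the low-count filter, which left 11036 genes for testing. Transcripts were measured by SAGE, in which a short tag near the 3′ end of each messenger RNA is sequenced and counted, so that a longer transcript does not give a higher count. All embryos were of mouse strain FVB, were carried by diabetic dams and were taken at 8.5 days of gestation, so the controls share the maternal diabetes, and no embryos of dams without diabetes were analysed here. The first group holds 4 libraries of protrusions that were cut by laser from the open neural plate in cryosections, of which protrusion 1 is labelled separated and protrusions 2, 3 and 4 attached. The control group holds 4 libraries of open neural tube of normal shape (numbers 9, 10, 13 and 14), here also called open tubes, collected just in front of closure site 1, the place where the neural folds first meet. How diabetes was brought about, and whether each library is a separate embryo, the labels do not say, and the titles of protrusions 1 and 2 begin alike. The p-values below therefore rest on library-to-library spread, of which an unknown share may be technical. The position of the protrusions along the body axis is not given either, so that protrusion and axial level cannot be told apart.

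In a cell with enough oxygen, the prolyl hydroxylases encoded by the Egln genes mark HIF-1α, the product of Hif1a, and the VHL ubiquitin ligase then sends it to the proteasome. When oxygen falls, HIF-1α escapes this marking, pairs with ARNT and switches on genes for blood vessel growth, glycolysis, mitophagy and histone demethylation. Because the sensing happens on the protein, the level of Hif1a messenger RNA need not follow oxygen, and the response is usually read from target genes. Embryos of this stage develop at low oxygen, and Hif1a, Vhl, Vegfa and Cited2 are each needed for normal mouse development, with open neural tubes among the defects of Hif1a and Cited2 mutants.

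Total counts were 6112477 to 11430602 reads in the protrusion libraries and 5668054 to 16655583 in open neural tube, and 3 reads stood for 0.262 to 0.491 CPM (the count of a gene scaled to the total count of its library) in protrusions and 0.180 to 0.529 CPM in open tubes. With a read or more, 14575 to 16330 genes were seen in the protrusion libraries, against 9920 to 11557 in open neural tube. Among genes at the level of Vhl, 0.103% to 0.309% were at 0 in the protrusion libraries and 2.73% to 14.8% in the open neural tube libraries, so a low value there is less certain. At the level of Kdm3a or Cited2 at most 0.157% of genes were at 0 in any library. The neural tissue label was checked on 12 neural progenitor markers, of which Pou3f2 was at no more than 0.175 CPM in protrusions and at 0 in open neural tube. Their summed level was 606 to 1292 CPM in the protrusions and 252 to 1561 CPM in open tubes. Not all markers bore out the neural label in the attached protrusions. Of the 11 neural markers tested over all libraries, 6 had fitted fold changes above 0 and 5 below. The markers that follow were picked after their values were seen, apart from Sox2. Sox1 was at 4.01 to 6.85 CPM there, against 78.0 to 99.6 CPM in open neural tube 9, 10 and 14. Zic1 was at 0.430 to 1.05 CPM in the attached protrusions, against 105.0 to 352 CPM in those open tubes, and Pax6 at 0.612 to 7.21 CPM, against 40.8 to 60.9 CPM. The separated protrusion had 108 CPM of Sox1, 51.0 CPM of Zic1 and 31.6 CPM of Pax6, and open neural tube 13 had 15.3, 4.74 and 4.92 CPM of these genes. Sox3, in contrast, was at 23.9 to 50.7 CPM in the attached protrusions, against 0 to 3.18 CPM in open neural tube 9, 10 and 14. Cdh2 was at 91.9 to 144 CPM in the attached protrusions, against 31.4 to 88.3 CPM in those open tubes. Sox2, the most abundant of the list, was at 158 to 415 CPM in the attached protrusions and 287 to 550 CPM in open neural tube 9, 10 and 14. Open neural tube 13 stood apart, with the lowest neural sum (252 CPM) and the highest endothelial sum (367 CPM). Among the open tubes it also had the highest sums of other non-neural markers. These were 668 CPM for paraxial mesoderm, 357 CPM for neural crest, 329 CPM for surface ectoderm and 53.1 CPM for endoderm. Its red cell sum (932 CPM) was also high, but that of open neural tube 14 was higher (1010 CPM). Values without open neural tube 13 are given where it sets a result. Of the 12 primitive streak and axial progenitor markers, all were detected in protrusions, where their sum was 293 to 1325 CPM. In open neural tube 7 of 12 were detected, with a sum of 5.23 to 47.8 CPM, and Cdx4, Mixl1, Eomes, Nodal and Evx1 were at 0. The streak sums thus did not overlap between the groups, and the part of these marker differences in the results on the 10 genes was not tested.

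The sequences that the assay would read for the genes of the main results are shown first, since each count rests on short tags. SAGE kits of this type anchor the tag at CATG, the site of the enzyme NlaIII. The last CATG of the transcript, in capitals, and the 23 bases that follow it were read from the GENCODE M21 transcripts of the GRCm38 build, on the sense strand, 5′ to 3′. For Egln1 (chromosome 8), Bnip3 (chromosome 7) and Cited2 (chromosome 10) the site lies in the 3′ UTR, and for Kdm3a (chromosome 6) 724 bases before the transcript's end, within or at the end of the coding part.
Kdm3a: CATGcagtgaaagatgcagttgctatg
Cited2: CATGaaaagatactactgtgttgaaag
Egln1: CATGttaggactcttgtttaaaaccat
Bnip3: CATGctgtatatatcctgttgtatttg
No other gene of that annotation had one of these tags as its last one. Kdm3a had 2 such tags among 4 coding transcripts, 3 of them sharing the one shown, Bnip3 had 2 among 2 transcripts, and Egln1 and Cited2 had 1 each. The count tables give no tags, so which tag was counted for a gene is not known.

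The first question was whether the hypoxia genes differ between the protrusions and the normally shaped neural plate. None of the 10 passed a Benjamini-Hochberg adjusted p of 0.05 over all genes in edgeR's quasi-likelihood test, where 0.607% of all genes tested did (0.281% higher and 0.326% lower in protrusions). An unadjusted p below 0.05 was found for 3 of the 10, Kdm3a, Cited2 and Egln1, against 15.3% of all genes. DESeq2 called those 3, where it called 7.2% of all genes tested (408 higher and 387 lower). The fitted fold changes had no single direction: 6 genes lay above 0 and 4 below, with a median log2 fold change of 0.24 against 0.08 for all genes tested. In 2 of the 10, Kdm3a and Cited2, every protrusion library lay above every open neural tube library, an arrangement seen in 8.84% of genes tested. In 0 of the 10 did every protrusion library lie below, against 4.55% of genes. The 10 genes were chosen with earlier results of these data known, so these shares are a description and not a test.

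**Figure D1:**
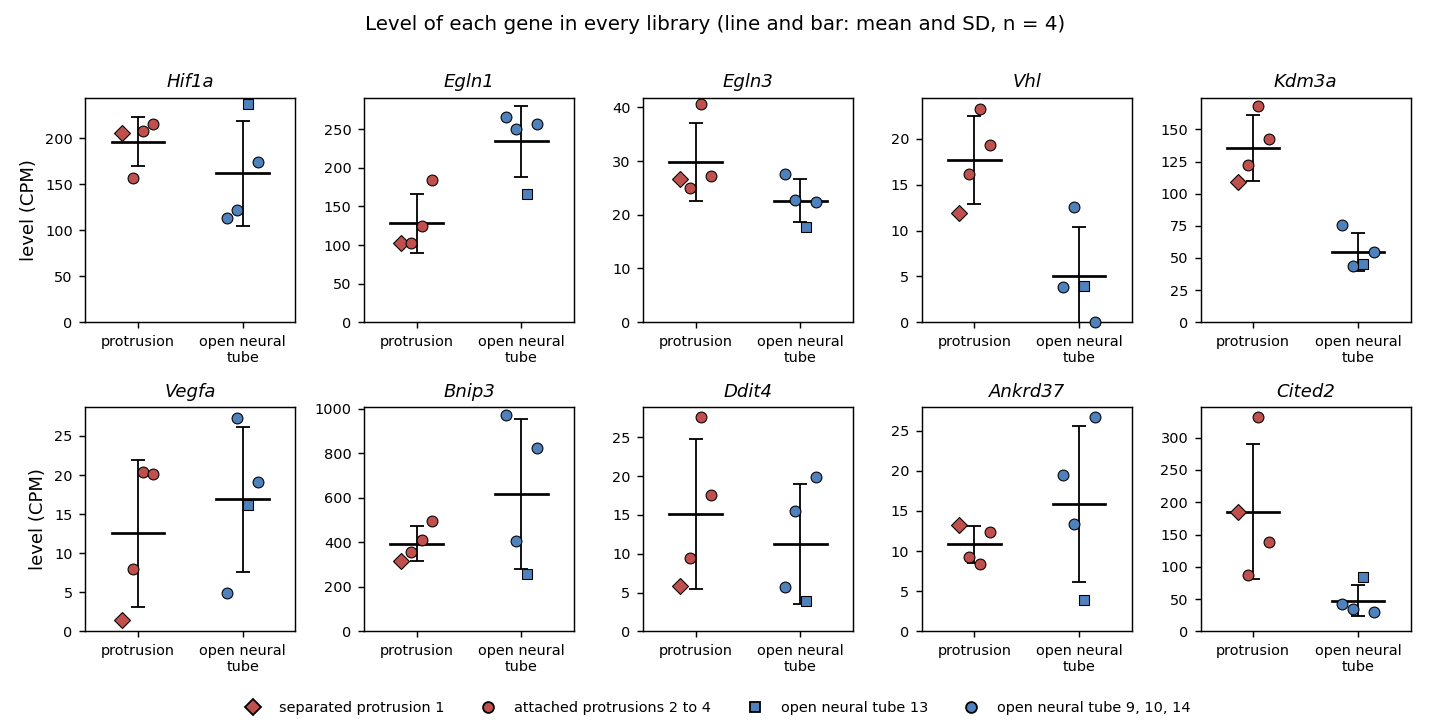
Level of each of the 10 genes in CPM (vertical axes, linear, from 0) in the 4 protrusion and the 4 open neural tube libraries, with group mean and SD. The points of the groups are apart for Kdm3a and Cited2 and overlap for the other 8 genes. The square of open neural tube 13 lies lowest in its group for Egln1, Bnip3, Ankrd37, Ddit4 and Egln3 and highest for Hif1a and Cited2.

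Hif1a, the oxygen-regulated subunit itself, was detected in every library. It stood at 206, 157, 207 and 215 CPM in protrusions 1 to 4, and at 113, 122, 237 and 174 CPM in open tubes 9, 10, 13 and 14. The highest value of all was open neural tube 13, and the groups overlapped. The means were 196 ± 26.6 CPM in the protrusions, against 162 ± 56.8 CPM in the open tubes (n = 4 each, SD). The log2 fold change was 0.18 ± 0.26 (± SE, as throughout; edgeR adjusted p = 0.814), and 0.47 ± 0.21 with open neural tube 13 left out (adjusted p = 0.258).

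Of the oxygen-sensing prolyl hydroxylases, 2 are among the 10 genes, with fitted fold changes of opposite sign, and neither passed the threshold. Egln1, which encodes PHD2, the main hydroxylase of HIF-1α in most tissues and itself a HIF target, stood at 102, 102, 125 and 184 CPM in the protrusions and at 266, 251, 166 and 257 CPM in open tubes. The groups overlapped through 1 pair of libraries: open neural tube 13, at 166 CPM, lay below protrusion 4, at 184 CPM. Mean levels were 128 ± 38.5 CPM in the protrusions, against 235 ± 46.1 CPM in the open tubes (n = 4 each, SD), with a log2 difference of −0.96 ± 0.24 (edgeR adjusted p = 0.0832; exact permutation test over the 8 libraries, 2-sided, unadjusted p = 0.0571). Without open neural tube 13 it was −1.06 ± 0.24 (adjusted p = 0.0531). DESeq2 placed Egln1 past the threshold (adjusted p = 0.0130).

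Egln3, which encodes PHD3 and is strongly induced by hypoxia in many cells, was at 26.7, 24.9, 40.6 and 27.3 CPM in the protrusions and at 27.6, 22.8, 17.8 and 22.3 CPM in open tubes. Apart from protrusion 3, the libraries of both groups lay close together. The log2 fold change was 0.30 ± 0.31 (edgeR adjusted p = 0.730). Vhl, the substrate-binding part of the ligase, was a low gene, with 11.9, 16.2, 23.3 and 19.4 CPM in protrusions. In open neural tube it stood at 3.85, 12.5, 3.96 and 0 CPM, the last being 0 reads, where 3 reads would be 0.358 CPM. Only open neural tube 10 reached the range of the protrusions. Means were 17.7 ± 4.801 CPM and 5.08 ± 5.29 CPM (protrusions and open neural tube, SD, n = 4 each). The fitted log2 change was 1.73 ± 1.07 (edgeR adjusted p = 0.502; exact permutation p = 0.0571, 2-sided and unadjusted). In open neural tube 14, where Vhl was at 0, 11.8% of genes of like level were at 0 too. The log2 change was 2.66 ± 1.09 without open neural tube 10 (adjusted p = 0.244), 1.35 ± 0.58 without 14 (adjusted p = 0.289) and 3.17 ± 1.17 with limma-voom (adjusted p = 0.152).

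Kdm3a showed the smallest p of the 10 genes and was higher in every protrusion. It encodes a JmjC demethylase that removes methyl groups from lysine 9 of histone H3, needs oxygen for its reaction and is transcribed under HIF control. It stood at 109, 122, 168 and 142 CPM in the protrusions and at 75.5, 43.4, 45.3 and 54.8 CPM in open tubes. The lowest protrusion, the separated one, lay above the highest open neural tube library. Means were 135 ± 25.6 CPM in the protrusions, against 54.8 ± 14.7 CPM in the open tubes (n = 4 each, SD), a fitted fold of 2.30 (log2 1.20 ± 0.24). The edgeR adjusted p was 0.0584, and the exact permutation p of 0.0286, 2-sided and unadjusted, is the smallest that 4 against 4 libraries allow. The log2 fold change stayed between 1.13 and 1.47 over 19 other settings, and the gene passed the threshold in 5 of them: DESeq2 (adjusted p = 0.000601), limma-voom (0.0286), the filter of 20 CPM (0.0330), no scaling factors (0.0466) and thinning to the smallest library (0.0499).

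Bnip3 was the most abundant of the 10 genes in both groups and had a fitted fold change below 0. Its product sits in the outer mitochondrial membrane and marks mitochondria for removal by autophagy, and its gene is a well-known HIF target. Bnip3 stood at 316, 355, 411 and 496 CPM in the protrusions and at 969, 405, 259 and 824 CPM in open tubes. The protrusions lay close together, while open neural tube 9 and 14 were far above 10 and 13, and the groups overlapped. Means were 394 ± 77.8 CPM in the protrusions, against 614 ± 337 CPM in the open tubes (n = 4 each, SD), and the fitted log2 change was −0.74 ± 0.38 (edgeR adjusted p = 0.394). It was −0.96 ± 0.31 without open neural tube 13 (adjusted p = 0.119) and −0.36 ± 0.37 without open neural tube 9 (adjusted p = 0.703).

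Ankrd37, a small ankyrin repeat protein whose gene is induced through HIF-1, had its higher and lower open neural tube libraries in common with Bnip3. It was at 13.3, 9.32, 8.40 and 12.4 CPM in the protrusions and at 19.5, 13.4, 3.90 and 26.7 CPM in open tubes. The highest values were again those of open neural tube 14 and 9, and the lowest was open neural tube 13. The log2 fold change was −0.63 ± 0.61 (edgeR adjusted p = 0.702). With open neural tube 13 left out it was −0.92 ± 0.47 (adjusted p = 0.325), and with 14 left out −0.23 ± 0.62 (adjusted p = 0.894).

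Vegfa, the blood vessel growth factor that is the best-known HIF target, was low and uneven. It stood at 1.47, 8.03, 20.4 and 20.2 CPM in the protrusions and at 4.94, 27.3, 16.2 and 19.1 CPM in open tubes. The separated protrusion was lowest, with 9 reads, and the ranges of the groups covered each other. The log2 fold change was −0.53 ± 0.77 (edgeR adjusted p = 0.820), and −0.15 ± 0.63 without the separated protrusion. Ddit4 (REDD1), which slows growth by restraining TORC1 and is induced by hypoxia as well as by other stresses, was at 5.89, 9.46, 27.6 and 17.5 CPM in the protrusions and at 5.73, 15.5, 3.90 and 19.9 CPM in open tubes. Neither group held the higher values as a whole (log2 0.32 ± 0.68, edgeR adjusted p = 0.884), and the sign of the fold change turned when protrusion 3 was left out (−0.064 ± 0.79). For both genes, values differed several-fold within each group.

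Cited2, the feedback inhibitor of the pathway, was higher in every protrusion. It is induced by HIF-1 and competes with HIF-1α for the CH1 domain of the coactivators CBP and p300, and it also serves as a coactivator for TFAP2 transcription factors. Cited2 stood at 185, 87.5, 331 and 139 CPM in the protrusions and at 41.8, 34.6, 83.9 and 30.7 CPM in open tubes. Protrusion 2 at 87.5 CPM and open neural tube 13 at 83.9 CPM almost touched, and the other libraries lay well apart. Means were 186 ± 105 CPM in the protrusions, against 47.7 ± 24.5 CPM in the open tubes (n = 4 each, SD), a fitted fold of 3.53 (log2 1.82 ± 0.43, edgeR adjusted p = 0.0794; exact permutation p = 0.0286, 2-sided and unadjusted). The log2 fold change was 2.29 ± 0.41 without open neural tube 13 (adjusted p = 0.0531). DESeq2 placed Cited2 past the threshold (adjusted p = 0.00139), and none of the other settings did. The streak marker sum, at 293, 1325, 1235 and 891 CPM in protrusions 1 to 4 and 5.23 to 47.8 CPM in open neural tube, was also higher in every protrusion, and its part in the Cited2 difference was not tested. In tissue samples such as these, fewer cells of a type and less RNA per cell cannot be told apart.

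**Figure D2:**
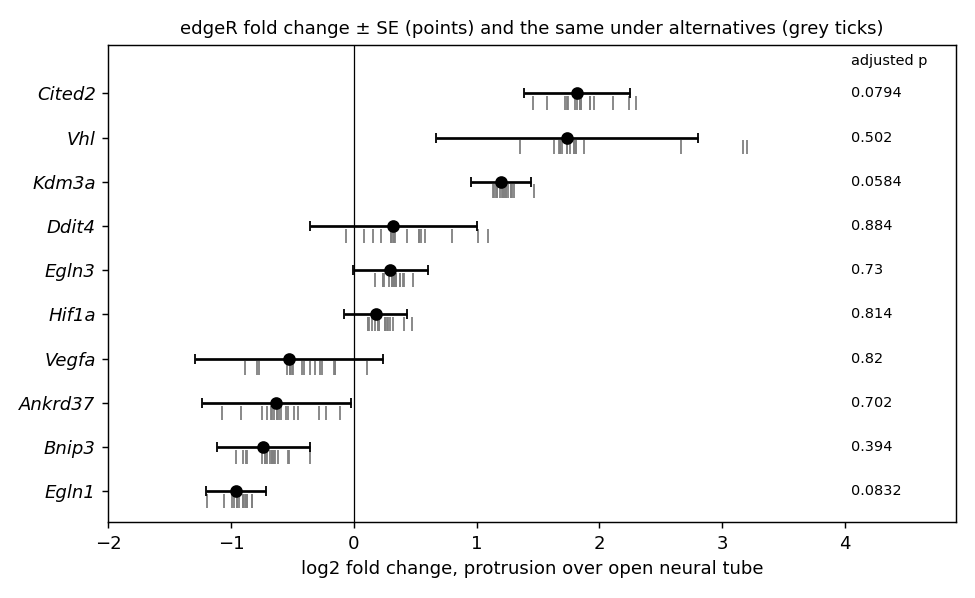
Log2 fold change of protrusion over open neural tube for each gene (horizontal axis; points with SE from edgeR, n = 4 libraries each), the values under 18 or 19 other settings as grey ticks, and the adjusted p at the right. Cited2, Vhl and Kdm3a lie furthest to the right and Egln1 furthest to the left, and no adjusted p is under 0.05.

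Ordered by level, Bnip3 came first in both groups, and Ankrd37, Ddit4, Vegfa and Vhl lay at the bottom, with means of 10.8 to 17.7 CPM in the protrusions and 5.08 to 16.9 CPM in open tubes that overlapped within their SDs. In protrusions Hif1a (196 CPM) and Cited2 (186 CPM) followed Bnip3, then Kdm3a (135 CPM) and Egln1 (128 CPM), and from Hif1a to Egln1 neighbours in the order did not differ beyond their SDs. In open neural tube the order after Bnip3 was Egln1 (235 CPM), Hif1a (162 CPM), Kdm3a (54.8 CPM) and Cited2 (47.7 CPM). There the SDs of neighbours overlapped from Bnip3 to Hif1a and again from Kdm3a down, so that only the step between Hif1a and Kdm3a exceeded the spread, and in open neural tube 13 Hif1a (237 CPM) lay above Egln1 (166 CPM). SAGE levels are not weighted by length, but tags of different genes may be caught with different success, so this order is approximate.

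Some of the genes lay nearer to each other in profile over the libraries than others. The distance between profiles, taken as the root mean square difference of log2 CPM after each gene was centred on its own mean over the 8 libraries, was smallest for Bnip3 and Ankrd37 (0.43), next for Bnip3 and Egln1 (0.46), and 0.48 for Hif1a and Egln3. Kdm3a lay nearest to Egln3 (0.50), and lay further from Egln1 (1.14) and Bnip3 (0.98), though Kdm3a, Egln1 and Bnip3 are all HIF targets. Cited2 lay nearest to Kdm3a (0.71). Vhl lay at 1.59 or more from each of the other genes. In open neural tube 14, where it had 0 reads, its log2 CPM was −2.20, against its mean of 2.75. That value weighs heavily in its distances. For scale, the median distance from Hif1a to 11026 other genes was 0.84, and the nearest, Tceal8, lay at 0.13. Egln3 was thus nearer to Hif1a than the median gene but not among its closest. For Vegfa the median was 1.51. It was not computed for the other genes, so their distances have no such scale. The distance is also small between genes that each vary little over the libraries. In open neural tube 13 the neural sum was lowest of that group, and the endothelial, paraxial mesoderm, neural crest, surface ectoderm and endoderm sums were highest. Bnip3, Ankrd37 and Egln1 were at their lowest of that group in the same library. Whether tissue makeup had a part in that was not tested.

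**Figure D3:**
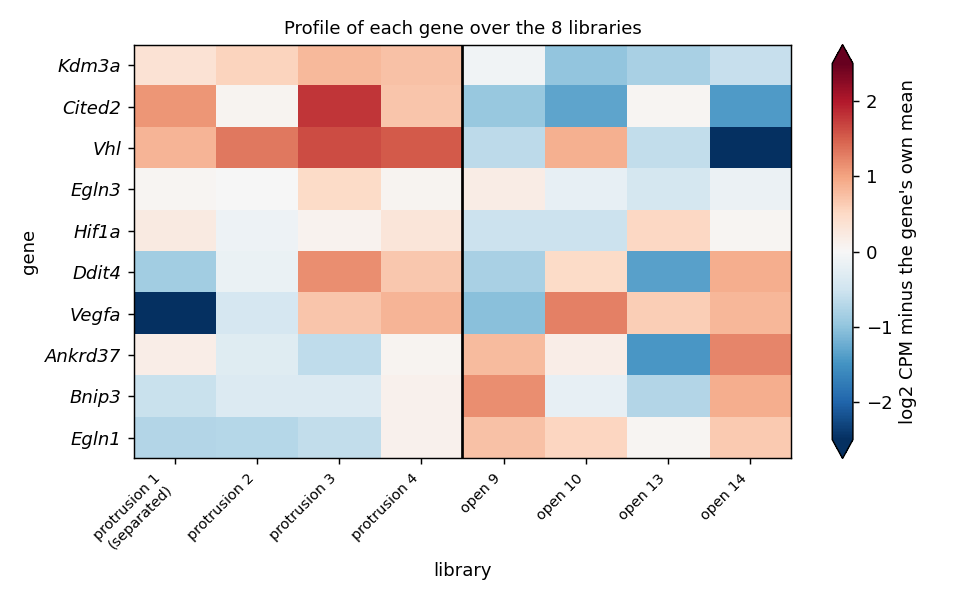
Profile of each gene (rows) over the 4 protrusion and 4 open neural tube libraries (columns), as log2 CPM minus the gene's own mean, in red above and blue below. Kdm3a, Cited2 and Vhl are red in all or nearly all protrusions, and Ankrd37, Bnip3 and Egln1 form a block that is red in open neural tube 9 and 14.

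Ratios of counts within a library do not depend on any scaling factor. The ratios were formed after the values above had been seen, so they are given as a description. Kdm3a was already known to lie higher in every protrusion, and the means of Egln1 and Bnip3 to be lower. Ratios of these genes that do not overlap therefore add little to the values of each gene. The share of other gene pairs without overlap was not computed. There were 1.07, 1.20, 1.34 and 0.775 Kdm3a reads for each Egln1 read in protrusions 1 to 4, against 0.284, 0.173, 0.273 and 0.214 in open neural tube 9, 10, 13 and 14. The lowest protrusion thus exceeded the highest open neural tube library, open neural tube 13 included. Cited2 over Egln1 did not overlap either, at 1.81, 0.856, 2.65 and 0.754 in protrusions and 0.157, 0.138, 0.505 and 0.120 in open neural tube. For Kdm3a over Bnip3 the ratio was 0.347 ± 0.0497 in protrusions and 0.107 ± 0.0485 in open neural tube (SD, n = 4 each), again without overlap. The hydroxylase ratio Egln3 over Egln1 was 0.260, 0.244, 0.325 and 0.148 in protrusions and stayed between 0.0870 and 0.107 in open neural tube. The balance of these 2 hydroxylase transcripts was thus nearly the same in all open neural tube libraries and tilted towards Egln3 in every protrusion. By contrast Ankrd37 over Bnip3 was 0.0284 ± 0.00935 in protrusions and 0.0252 ± 0.00904 in open neural tube (SD, n = 4 each), with overlapping values.

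**Figure D4:**
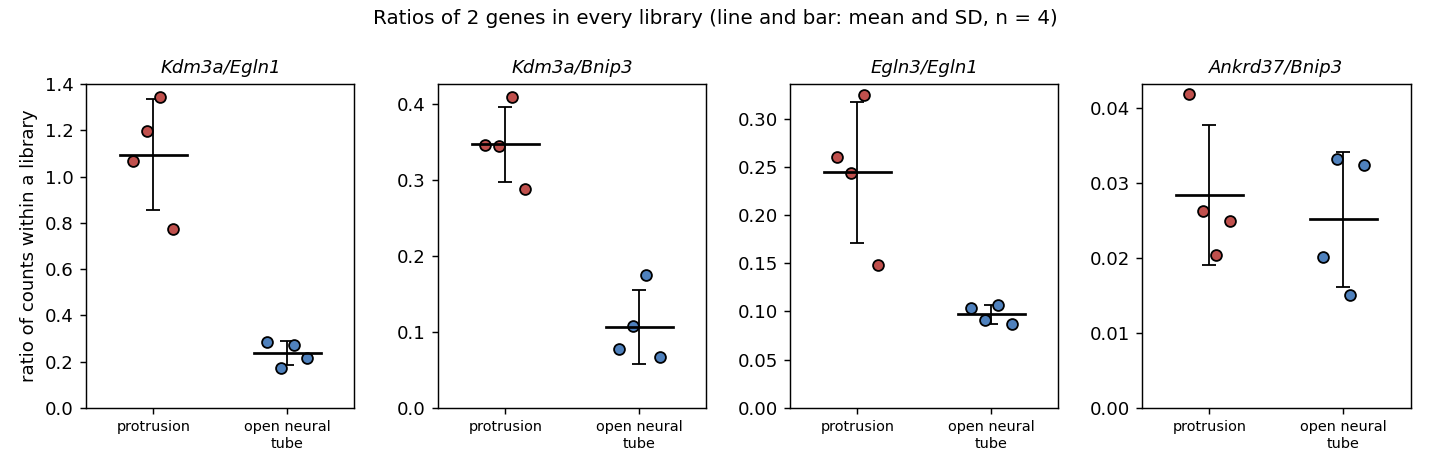
Ratio of the counts of 2 genes within each library (vertical axes, from 0) in the 4 protrusion and 4 open neural tube libraries, with group mean and SD. Kdm3a over Egln1, Kdm3a over Bnip3 and Egln3 over Egln1 are higher in all 4 protrusions, while Ankrd37 over Bnip3 overlaps.

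By morphology label, the separated protrusion could be set beside the attached ones without a test, since it is 1 library against 3. It lay below all attached protrusions for 5 genes (Vhl, Kdm3a, Vegfa, Bnip3 and Ddit4), within their range for 4 (Hif1a, Egln1, Egln3 and Cited2) and above them for Ankrd37. Over all genes tested 34.3% lay below and 28.1% above all attached protrusions, so 6 of 10 outside their range is near the share of all genes. As a ratio the gap was widest in Vegfa, at 1.47 CPM in the separated protrusion and 16.2 ± 7.08 CPM in the attached ones (SD, n = 3). For Kdm3a the values were 109 CPM and 144 ± 22.9 CPM, and for Cited2 185 CPM and 186 ± 129 CPM (attached SD, n = 3).

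HIF binds DNA at a short core, ACGTG or GCGTG. Promoters are shown for Kdm3a, Cited2 and Egln1, the genes with an unadjusted edgeR p below 0.05, and for Bnip3 as the most abundant target. Vhl, whose groups overlapped through 1 pair of libraries as did those of Egln1, holds no core and is not shown. They run from 250 bases before to 50 after the annotated start, in RefSeq of GRCm38.p6, and the cores ACGTG and GCGTG on either strand are in capitals.
Kdm3a (chr6:71632868-71633167, minus strand): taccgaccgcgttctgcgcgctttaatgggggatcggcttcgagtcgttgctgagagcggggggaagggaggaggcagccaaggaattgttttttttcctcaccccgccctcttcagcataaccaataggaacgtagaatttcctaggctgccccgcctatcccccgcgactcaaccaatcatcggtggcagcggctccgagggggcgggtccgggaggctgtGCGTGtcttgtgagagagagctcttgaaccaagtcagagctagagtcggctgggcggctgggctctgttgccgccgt
Cited2 (chr10:17722978-17723277, plus strand): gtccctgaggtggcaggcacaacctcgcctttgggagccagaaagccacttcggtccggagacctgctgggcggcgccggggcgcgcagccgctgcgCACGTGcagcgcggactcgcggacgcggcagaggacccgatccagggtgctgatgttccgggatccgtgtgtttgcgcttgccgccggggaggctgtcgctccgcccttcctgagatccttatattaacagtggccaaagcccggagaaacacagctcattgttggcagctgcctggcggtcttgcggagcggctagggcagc
Egln1 (chr8:124949205-124949504, minus strand): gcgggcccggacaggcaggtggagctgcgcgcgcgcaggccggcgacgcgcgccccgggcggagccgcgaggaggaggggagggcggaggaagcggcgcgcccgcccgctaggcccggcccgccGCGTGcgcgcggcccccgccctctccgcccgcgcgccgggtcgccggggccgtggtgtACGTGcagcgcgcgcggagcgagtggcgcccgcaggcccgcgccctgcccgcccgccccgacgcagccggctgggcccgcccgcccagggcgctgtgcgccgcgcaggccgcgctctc
Bnip3 (chr7:138909457-138909756, minus strand): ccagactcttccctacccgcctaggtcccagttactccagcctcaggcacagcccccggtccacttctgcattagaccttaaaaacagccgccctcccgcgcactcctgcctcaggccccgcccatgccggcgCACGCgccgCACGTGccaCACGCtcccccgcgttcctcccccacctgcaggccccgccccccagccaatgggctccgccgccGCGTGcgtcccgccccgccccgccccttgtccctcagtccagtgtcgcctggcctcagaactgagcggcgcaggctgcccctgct
Bnip3 held 2 matches of ACGTG and 3 of GCGTG counted over both strands, and Egln1 1 of each. In Cited2 the 2 matches of ACGTG are the 2 strands of a single CACGTG, which is also an E-box, and Bnip3 has such a site too. Kdm3a has 3 annotated starts, of which the window shown holds 1 GCGTG and the others hold none. All 10 genes were matched, with 13 starts in all. A core was found in 9 of the 13 windows (69.2%) and in at least 1 window of every gene but Vhl. For Vegfa the window of the upstream start (chr17:46032328-46032627, minus strand) holds none. Its matches lie in the window of a start further into the gene (chr17:46025114-46025413). Of 32851 promoter windows of the same length 43.8% hold ACGTG or GCGTG, so a match is common, and it is a description of the letters and not of binding. The core stood both in genes with fold changes above 0 (Kdm3a, Cited2) and in genes with fold changes below 0 (Egln1, Bnip3).

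The rest of the pathway was read from 7 lists. Counted once, they hold 114 genes found in the tables, of which 95 were tested. None passed the threshold, against 0.607% of all genes. At an unadjusted p under 0.05, 9 were higher and 11 lower (21.1% of the 95, against 15.3% of all genes), DESeq2 called 11 (11.6%, against 7.2% of all genes), and 12.6% of the 95 did not overlap between the groups, against 13.4% of all genes. The lists were written with earlier results of these data known.

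In the sensing machinery 0 of 16 tested genes passed, with a median log2 fold change of −0.04. Tceb2, which encodes the elongin B subunit of the VHL ligase, stood at 239 ± 30.8 CPM in the protrusions, against 120 ± 25.5 CPM in the open tubes (n = 4 each, SD; log2 0.92 ± 0.20, edgeR adjusted p = 0.0694). Hsp90ab1, a chaperone that stabilises HIF-1α, was the most abundant, at 9453 ± 601 CPM in the protrusions, against 5928 ± 348 CPM in the open tubes (n = 4 each, SD; log2 0.59 ± 0.13, edgeR adjusted p = 0.0722), and has near-identical copies whose tags may be shared. For both Tceb2 and Hsp90ab1 every protrusion lay above every open neural tube library. The genes of the VHL ligase did not all share the direction of Tceb2. Vhl itself, described above, had a log2 change of 1.73 ± 1.07 (edgeR adjusted p = 0.502). Rbx1 stood at 971 ± 201 CPM in the protrusions, against 1463 ± 97.0 CPM in the open tubes (n = 4 each, SD), and lay lower in every protrusion. Its log2 change was −0.67 ± 0.19 (edgeR adjusted p = 0.115). Cul2 had −0.59 ± 0.19 (adjusted p = 0.151), and Tceb1 had 0.0034 ± 0.36 (adjusted p = 0.998). Epas1, which encodes HIF-2α, was not tested: it had at most 0.262 CPM in the protrusions and reached 17.1 CPM in open neural tube 13. That library was rich in endothelial markers and in those of other non-neural tissues.

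Among hypoxia-induced genes outside glycolysis 0 of 23 passed (median 0.27). Rbpj, the DNA-binding partner of Notch, had −0.78 ± 0.20 (edgeR adjusted p = 0.0832) and lay lower in every protrusion, and the histone demethylase Kdm5c had −0.72 ± 0.20 (adjusted p = 0.106). Bnip3l, the close relative of Bnip3 and the most abundant gene of this list, stood at 813 ± 192 CPM in the protrusions, against 1257 ± 382 CPM in the open tubes (n = 4 each, SD; log2 −0.71 ± 0.27, edgeR adjusted p = 0.234). As with Bnip3, its highest values were those of open neural tube 9 and 14. In the mitophagy and autophagy list, which shares Bnip3l, 0 of 12 passed (median 0.32), and Map1lc3b, which coats autophagosomes, had −0.59 ± 0.30 (edgeR adjusted p = 0.392).

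Of 17 tested glycolysis genes under HIF control 0 passed (median 0.06). Slc2a3, a high-affinity glucose transporter, stood at 202 ± 71.1 CPM in the protrusions, against 53.6 ± 31.2 CPM in the open tubes (n = 4 each, SD; log2 1.86 ± 0.42, edgeR adjusted p = 0.0740), and every protrusion was above every open neural tube library. Pgk1 had 2.43 ± 0.87 (adjusted p = 0.201). Ldha, the most abundant, stood at 11210 ± 3356 CPM in the protrusions, against 11362 ± 3589 CPM in the open tubes (n = 4 each, SD; log2 −0.10 ± 0.29, edgeR adjusted p = 0.922). Gapdh and Eno1 were listed at 0 in all 8 libraries although every cell uses them, so a 0 in these tables cannot be read as absence, and Pgk1 and Ldha have processed copies that may take part of their tags.

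Among VEGF ligands and receptors 0 of 7 passed (median −0.61). Nrp1, a coreceptor, stood at 10.7 ± 10.99 CPM in the protrusions, against 83.9 ± 110.1 CPM in the open tubes (n = 4 each, SD), where open neural tube 13 alone had 247 CPM (log2 −3.09 ± 1.04, edgeR adjusted p = 0.177). Without that library the open tubes averaged 29.4 ± 19.7 CPM (n = 3, SD) and the log2 change of Nrp1 was −1.52 ± 0.86 (edgeR adjusted p = 0.374), and without the separated protrusion it was −4.13 ± 1.12 (adjusted p = 0.0816). Vegfb, the most abundant, had 1.15 ± 0.46 (adjusted p = 0.257). The receptors Kdr and Flt1 were at 0 in all open neural tubes and at no more than 0.491 CPM in protrusions. As said above, a 0 in these data cannot be read as absence. The 15 endothelial markers, which include Kdr and Flt1, summed to 42.3 to 131 CPM in the protrusions and 61.5 to 367 CPM in open tubes. In protrusions 2, 3 and 4 the sums were 42.3, 49.9 and 45.3 CPM, of which Egfl7 alone made 35.8, 43.5 and 37.5 CPM. Each other endothelial marker was at no more than 4.73 CPM there.

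Downstream of Ddit4, 0 of 10 tested TORC1 genes passed (median 0.11). Rheb, the GTPase that activates TORC1, was the most abundant, at 455 ± 49.2 CPM in the protrusions, against 576 ± 60.3 CPM in the open tubes (n = 4 each, SD; log2 −0.42 ± 0.16, edgeR adjusted p = 0.230), and the kinase gene Rps6kb1 had −0.60 ± 0.29 (adjusted p = 0.361). Of 11 genes of the integrated stress response, a pathway that also governs Ddit4, 0 passed (median 0.01). Atf4, its main transcription factor, had 1.71 ± 1.03 (edgeR adjusted p = 0.491), Trib3 had 1.48 ± 1.51 (adjusted p = 0.724), and the most abundant, Psat1, stood at 293 ± 75.5 CPM in the protrusions, against 258 ± 49.5 CPM in the open tubes (n = 4 each, SD).

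**Figure D5:**
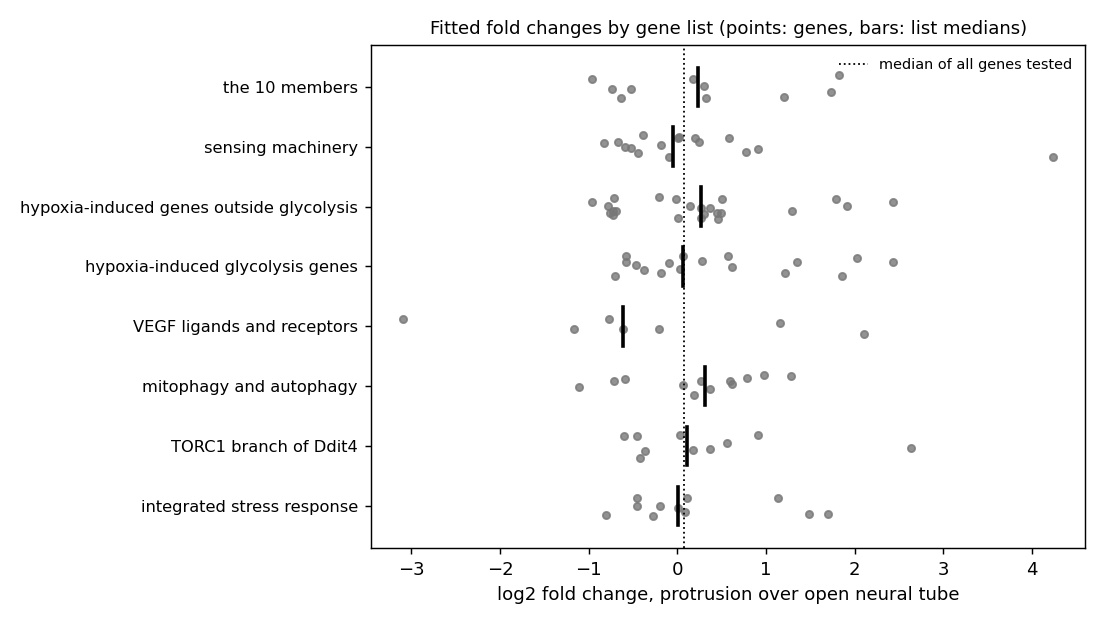
Fitted log2 fold changes of protrusion over open neural tube (horizontal axis) for the 10 genes and for the tested genes of each of the 7 pathway lists, with bars at the list medians and a dotted line at the median of all genes tested. Every row spreads to both sides of 0, and medians lie between −0.61 for VEGF ligands and receptors and 0.32 for mitophagy and autophagy.

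The genes nearest to Hif1a in profile, by the same distance over the 8 libraries, were Tceal8 (0.13), Xpnpep1 (0.15) and Gpx7 (0.16), against a median of 0.84 over 11026 genes. Those nearest to Vegfa were Rara (0.49), Tmbim1 (0.51) and Ldb1 (0.51), against a median of 1.51. With so many genes compared, some lie near any profile.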

How the data were processed

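SAGE libraries were made from 7 to 12 ng of total RNA per sample with a SOLiD SAGE kit, per the labels' protocols. The deposited files hold whole-number tag counts per gene symbol as the authors made them, with no normalization. Genome build mm9 is named in the submitters' processing notes; the mapping program, the treatment of shared tags and any use of strand were not given in the sources used here. Groups came from the source names, the numbers of open neural tubes from titles, and those of protrusions from accession order, so they pair nothing.

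CPM values are counts scaled to the library total. Tests used R 4.3.3 and edgeR 4.0.16: filterByExpr (minimum count 10), TMM, robust quasi-likelihood F test, 2-sided, all 8 libraries, adjusted over 11036 genes at 0.05. SEs derive from F, and log2 CPM used a prior count of 2. DESeq2 1.42.0, limma 3.58.1, other scalings, filters and left-out libraries were alternatives. Scripts were tested on simulated data. Floors cover counting error only. The 10 genes and all lists were chosen with earlier results of these data known; genes named from lists are, per list, the 2 with the smallest p and the most abundant, and for likeness to Hif1a and Vegfa the 3 nearest profiles. Epas1, Kdr, Flt1, Gapdh and Eno1 fall outside this rule and were chosen after their values were seen. So were the ligase genes Rbx1, Cul2 and Tceb1 and the neural markers Sox1, Sox3, Zic1, Pax6, Cdh2 and Pou3f2. Deptor, of the TORC1 list, and Tfap2a, of the neural crest list, were not matched. Summed levels of the other marker lists, in protrusions and then open neural tube, were 652 to 1475 and 116 to 668 CPM for paraxial mesoderm. They were 10.3 to 117 and 15.1 to 53.1 CPM for endoderm, and 20.1 to 98.8 and 33.2 to 357 CPM for neural crest. For surface ectoderm they were 142 to 1047 and 57.6 to 329 CPM, and for red cells 2.29 to 58.7 and 10.8 to 1010 CPM. The highest open neural tube sums were those of open neural tube 13, except for red cells (open neural tube 14). The most abundant marker was Egfl7 of the endothelial, Hba-x of the red cell, Sox2 of the neural, T of the streak, Dll1 of the paraxial, Trh of the endoderm, Twist1 of the crest and Cdh1 of the surface ectoderm list.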

Additional observations from a re-analysis of the deposited data

Results flagged for a closer look

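In 3 of 20 sets of 4 libraries (10 genes in each group), 1 library stood far from the others by Dixon's criterion at 95%, where chance gives about 1 in 20. Hif1a in protrusion 2 was at 157 CPM, below the other protrusions at 206 to 215 CPM. Egln1 in open neural tube 13 was at 166 CPM, below the other open neural tubes at 251 to 266 CPM. Egln3 in protrusion 3 was at 40.6 CPM, above the other protrusions at 24.9 to 27.3 CPM.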

How the results depend on the processing

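Of the 10 genes, Kdm3a, Cited2, Egln1, Bnip3, Egln3, Hif1a, Vhl and Ankrd37 kept the sign of their fold change in all 18 or 19 other settings. Vegfa turned to 0.10 on the log2 scale with limma-voom and sample weights, and Ddit4 to −0.064 without protrusion 3 (−0.064 to 0.80 over all single libraries left out). Of the 16 list genes named by the rule above, 14 kept their sign. Ldha turned to 0.035 with sample weights and to 0.043, 0.053 and 0.045 without protrusion 3, open neural tube 9 and open neural tube 14, and Psat1 to −0.0093 without protrusion 4. With libraries left out, Ldha lay between −0.33 and 0.053 and Psat1 between −0.0093 and 0.37. The cause of these turns was not tested. The number of the 10 genes past the threshold, 0, was 3 with DESeq2 and 1 with no scaling factors, with the filter of 20 CPM in 4 libraries, with limma-voom and when thinned to the smallest library; leaving out single libraries gave 0. Pathway list genes past the threshold, 0, were 11 with DESeq2, 4 with limma-voom, 2 with the 20 CPM filter, 1 with no scaling factors, 1 with limma-voom and sample weights, and 2 without protrusion 1 and open neural tube 13, a setting added after seeing the data; leaving out single libraries gave 0 to 1, the 1 without protrusion 1. Over all genes, 31 were higher and 36 lower in protrusions. The counts, higher then lower, were 408 and 387 with DESeq2, 221 and 149 with limma-voom, 103 and 86 with sample weights, 56 and 77 with the 20 CPM filter, 49 and 48 with no scaling factors, 47 and 42 when thinned, 41 and 62 with upper-quartile factors, 22 and 14 with protrusions 1 and 2 summed, and 115 and 96 without protrusion 1 and open neural tube 13; leaving out single libraries gave 1 to 87 higher (1 without open neural tube 9, 87 without protrusion 1) and 0 to 85 lower. Limma-voom moved the median of all genes by 0.11 and, with sample weights, by 0.16 on the log2 scale. Prior counts of 0.5 and 5 moved the difference in mean log2 CPM of Vhl to 3.17 and 2.29, against 2.66 with 2. No paired analysis was possible because the groups share no replicate numbers. Low counts and the smaller number of genes detected in open neural tube limit Vhl, Vegfa, Ddit4 and Ankrd37.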
